A study of Homo sapiens with 22 samples.

Results

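The step from stage 1 to stage 2 of a small-molecule protocol was examined in SK-N-AS, an established human neuroblastoma cell line, by comparing all genes between 2 groups of 4 libraries, 8 of the 22 libraries of the series. Per the labels, S1D4 cells are untreated SK-N-AS cells kept for 4 days with 5 µM PP121 in DMEM with 1% fetal bovine serum and 1X Glutamax. S2D4 cells are S1D4 cells kept for 4 more days with 5 µM PP121 and 100 nM bufalin in Neurobasal medium with 1X B27 and 0.25X Glutamax. PP121, an inhibitor of tyrosine kinases and of phosphoinositide 3-kinase family enzymes, is therefore present in both groups. Bufalin and B27 were added, serum was left out, Glutamax was lowered from 1X to 0.25X, the medium was exchanged and 4 further days passed. All of this applies to the same 4 libraries, so these changes cannot be told apart here. The labels describe the line as mesenchymal neuroblastoma. They do not say whether replicates came from separate cultures, so p-values measure only the spread between these samples. Untreated SK-N-AS cells (10% serum, 1X Glutamax) and S2D4 conditions held for 30 days (S2D30) entered the same model, with 4 libraries each. They serve as levels for orientation.

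Bufalin is a cardiac glycoside, a steroid that binds the alpha subunit of the sodium pump and blocks it, so that sodium accumulates and potassium is lost from the cell. Cardiac glycosides are known to raise immediate-early genes and to slow protein synthesis in cultured cells. B27 is a serum replacement for neurons that contains insulin, a glucocorticoid, thyroid hormone and a retinoid. Neuroblastoma arises from the sympathetic nervous lineage, and its lines are placed between an adrenergic state, held by transcription factors such as GATA3, and a mesenchymal state, held by factors such as PRRX1.

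Of 35237 genes in the table, 15810 passed the filter on low counts. Expression is given as CPM, a gene's count divided by its library's total and put on one common scale with TMM factors, and differences as log2 fold changes, S2D4 minus S1D4, with their standard error (SE). A gene was called at an adjusted p under 0.05 (edgeR's quasi-likelihood test, Benjamini-Hochberg adjustment over all 15810 genes).

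The libraries were not equally alike. Total counts were 19056618 to 22376636 in S1D4 and 18793711 to 34292076 in S2D4. Replicate 4 of S2D4, the library with 34292076 counts, correlated with the other S2D4 libraries at 0.9628 to 0.9648 (Pearson, log2 CPM over genes), while those 3 correlated with each other at 0.9895 or more. Over 3581 genes that changed at least 2-fold without it, replicate 4 had covered a median 0.758 of the way from S1D4 to the other S2D4 libraries. Both the genes and the end point of this measure were taken without replicate 4, which favours a value below 1 for it. Replicate 4 stood apart from its group for 2645 genes (16.7%), against 81 to 104 genes for each of the other S2D4 libraries (Dixon's gap test within the group). S1D4 held a second division: replicates 1 and 2 correlated at 0.9892 and replicates 3 and 4 at 0.9893, but libraries of different pairs at 0.9792 to 0.9811. The labels give no batch for either. Results were therefore recomputed without S2D4 replicate 4, and, as a choice made after seeing the data, without either S1D4 pair.

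Defining markers of other cell types were near 0, with exceptions. PTPRC, the CD45 antigen of leukocytes, had 187 ± 19.3 CPM (mean ± SD, n = 4) in untreated cells, 52.5, 52.04, 68.04 and 64.8 CPM in S1D4, 24.6, 25.2, 24.7 and 23.4 CPM in S2D4 and 0.877 ± 0.371 CPM at 30 days. The leukocyte markers CD3E and AIF1 were at 0 in all 8 libraries, and CD68, a lysosomal protein, reached 138 CPM in S2D4. The 10 leukocyte markers summed to 81.9 to 102 CPM per library in S1D4 and 105 to 164 CPM in S2D4, with 2 of 4 tested members higher and 1 lower. Schwann and glial markers summed to 7.8 to 10.5 and 3.13 to 4.87 CPM, and SOX10 reached 0.195 CPM (of 5 tested, 0 higher, 3 lower). Endothelial markers summed to 3.64 to 7.44 and 2.02 to 2.6 CPM (of 4 tested, 0 higher, 2 lower). Epithelial markers summed to 139 to 181 and 109 to 204 CPM, mostly the keratin KRT18 (up to 98.7 and 165 CPM), the claudin CLDN4 (up to 42.4 and 20.2 CPM) and the keratin KRT8 (up to 39.4 and 17.6 CPM), while EPCAM reached 0.245 CPM (of 5 tested, 0 higher, 2 lower). Of 8 neuroblastoma and sympathetic markers, all expressed, 7 were lower and none was higher, and of 6 mesenchymal markers 4 were higher and none was lower. The part of such markers in any single result was not tested.

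By the call rule 4470 genes (28.3%) were higher and 4242 (26.8%) were lower in S2D4. At least 2-fold differences were found for 1406 higher (8.89%) and 2019 lower genes (12.8%). All 4 S2D4 libraries lay above all 4 S1D4 libraries for 4020 genes (25.4%), and below them for 3790 genes (24%). The median log2 fold change over all genes tested was 0.0184. Counts within gene lists are to be read against these shares. Without S2D4 replicate 4, 8127 of the 8712 called genes were called in the same direction, 585 were lost, none was called in the opposite direction and 1169 further genes among the 15810 were called.

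**Figure D1:**
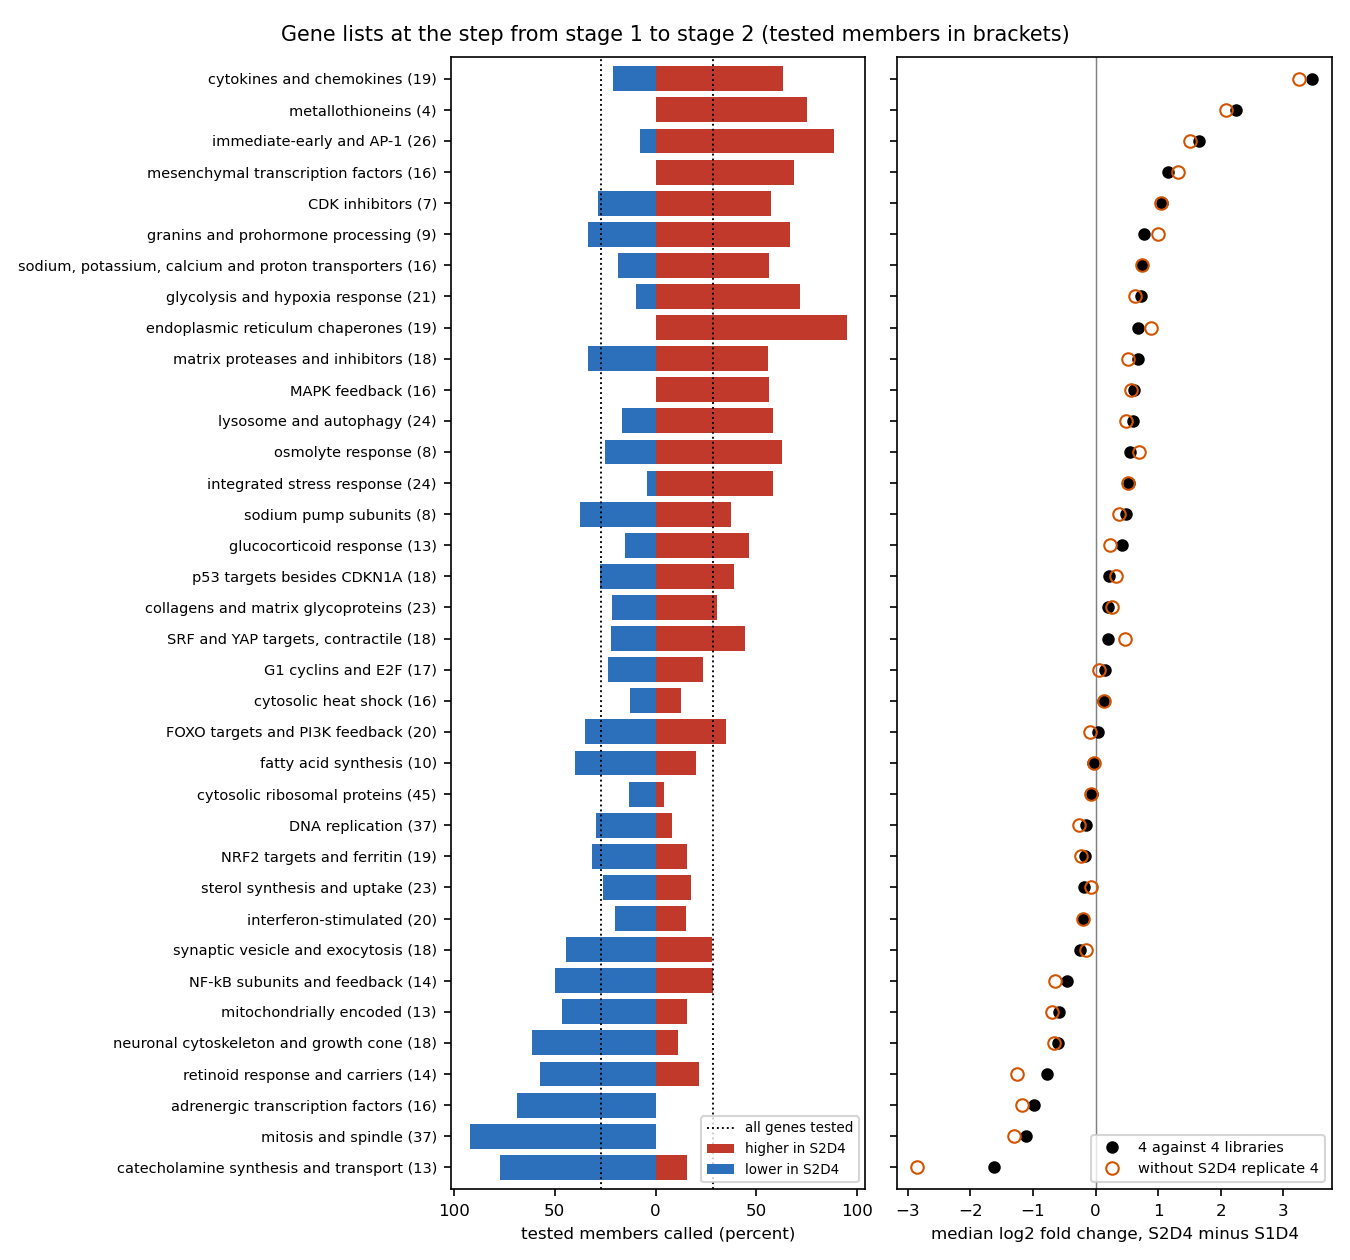
Gene lists at the step from stage 1 to stage 2. Left, the percentage of tested members called higher (red) or lower (blue) in S2D4, with the shares over all genes tested as dotted lines (28.3% and 26.8%). Right, the median log2 fold change of each list with all 8 libraries (filled) and without S2D4 replicate 4 (open). Immediate-early genes, endoplasmic reticulum chaperones and mitosis genes moved most uniformly, and the catecholamine list moved most when replicate 4 was left out, from -1.62 to -2.85.

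The 10 largest rises, among called genes with a mean of at least 10 CPM and no overlap between groups, lay between 5.25 and 7.56 on the log2 scale. NPTX1, a secreted neuronal pentraxin that gathers glutamate receptors at synapses, had 0.751, 0.735, 1.62 and 1.2 CPM in the S1D4 libraries and 226, 199.7, 215 and 180.2 CPM in the S2D4 libraries, each time in the order of replicates 1 to 4. All 4 S2D4 libraries were alike, and the log2 fold change was 7.56 ± 0.21, adjusted p = 3.01e-13. INHBA, which encodes the beta A subunit of activin and inhibin, had 2.84, 2.06, 3.07 and 2.54 CPM in S1D4 and 195, 186, 178 and 25.4 CPM in S2D4 (5.79 ± 0.52, adjusted p = 1.32e-07). The interstitial collagenase MMP1 had 28.8, 26.7, 31.6 and 34.3 CPM in S1D4 and 1774, 1681, 1605 and 60.7 CPM in S2D4 (5.40 ± 0.69, adjusted p = 5.95e-06). For both, replicate 4 rose far less than the other 3. The stromelysin MMP3 (5.77 ± 0.73), the glycoprotein hormone STC1 (5.68 ± 0.32), the thyroid hormone deiodinase DIO2 (5.61 ± 0.64), the Wnt receptor FZD8 (5.57 ± 0.64; 6.42 without S1D4 replicates 1 and 2), the glycosyltransferase GALNT9 (5.50 ± 0.41), thrombomodulin THBD (5.47 ± 0.71; 4.88 without S1D4 replicates 1 and 2 and 6.52 without S1D4 replicates 3 and 4) and the Ras GTPase-activating protein RASA3 (5.25 ± 0.43) completed the set. Replicate 4 was the lowest S2D4 library for all 10 genes. Where a value after a semicolon is followed by libraries left out, here and for the genes that follow, it is the log2 fold change without them.

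The 10 largest falls lay between -6.62 and -4.14. CILP, a matrix protein of cartilage, had 53.4, 52.4, 24.1 and 21.5 CPM in S1D4 and 0.241, 0.336, 0.439 and 0.467 CPM in S2D4 (-6.62 ± 0.35, adjusted p = 5.32e-10; -5.90 without S1D4 replicates 1 and 2). The gluconeogenic enzyme FBP1 went from 36.6, 36.4, 23.2 and 22.01 CPM to 0, 0, 0.3903 and 1.17 CPM (-6.0 ± 0.57, adjusted p = 2.29e-07). The adaptor protein SHD had 96.3, 100.2, 123 and 109.8 CPM and 0.0964, 0.224, 0.244 and 6.104 CPM (-5.80 ± 0.64, adjusted p = 1.37e-06). Replicate 4 kept the most RNA of the S2D4 libraries for all 10 genes, so without it the fall was larger for FBP1 (-7.71) and SHD (-9.13), and likewise for FAIM2, an inhibitor of Fas-mediated death (-4.41 with and -5.33 without it), and the cell adhesion gene IGLON5 (-4.35 and -6.35). The other falls were FAM65C (-5.0 ± 0.35; -4.41 without S1D4 replicates 1 and 2), the metalloprotease TLL2 (-4.75 ± 0.40), the actin-capping tropomodulin TMOD1 (-4.31 ± 0.15), the proneural factor NEUROG2 (-4.21 ± 0.38) and the monocyte chemokine CCL2 (-4.14 ± 0.63). CCL2 was split between S1D4 pairs at 282, 340, 57.6 and 54.8 CPM, against 8.196, 8.35, 7.32 and 17.3 CPM in S2D4. Its log2 fold change was -2.44 without S1D4 replicates 1 and 2 and -4.89 without replicates 3 and 4. Opposite-strand exons of other genes cover 45% of the TMOD1 exon bases, and whether counting used strand is not given in the sources used here.

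The subunits of the sodium pump, bufalin's target, were called in both directions. Of 8 tested members 3 were higher and 3 lower (median 0.488), against 28.3% and 26.8% among all genes. The median was -0.00561 in the fit of the 8 libraries alone, with 7 members tested, and -0.0137 with DESeq2, with 13 tested. Values of the alpha subunits are not reported here. The beta subunit ATP1B3 rose from 125, 112, 104 and 104 to 228, 222, 216 and 209.7 CPM (0.98 ± 0.11, adjusted p = 1.08e-06) without overlap, while ATP1B1, another beta subunit, fell from 53.1, 50.2, 31.7 and 30.1 to 26.3, 25.3, 22.3 and 16.2 CPM (-0.88 ± 0.19, adjusted p = 0.001). The neural and glial beta subunit ATP1B2 was lower (-1.90 ± 0.47, adjusted p = 0.00283), with 1.16, 1.06, 0.488 and 5.17 CPM in S2D4. Its fall was -3.08 without replicate 4. Among the FXYD regulators of the pump, FXYD5 rose from 11.9, 9.07, 9.92 and 10.3 to 108, 99.4, 98.5 and 47.9 CPM (3.10 ± 0.24, adjusted p = 3.04e-08) and FXYD6 fell (-1.49 ± 0.23, adjusted p = 3.59e-05). FXYD1 was near the detection limit, at 0, 0.196, 0.0878 and 0.0923 CPM in S1D4 and 0.193, 0.112, 0.488 and 0.3002 CPM in S2D4, and was not called (adjusted p = 0.106). With GC and length trends removed it was called higher (1.90, adjusted p = 0.0446).

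Genes of other ion transporters and of osmolyte handling were called higher more often than lower, against 28.3% and 26.8% among all genes. Osmotic load was not measured. Of 16 tested sodium, potassium, calcium and proton transporters 9 were higher and 3 lower (median 0.74). Without S1D4 replicates 3 and 4 the number lower was 1. The potassium chloride exporter SLC12A7 had 7.84, 7.06, 7.11 and 7.34 CPM in S1D4 and 29.3, 30.3, 35.8 and 106 CPM in S2D4 (2.78 ± 0.38, adjusted p = 1.33e-05), and its log2 fold change was 2.11 without the high replicate 4. The sodium bicarbonate importer SLC4A7 rose from 14.4, 14.5, 18.5 and 19.01 to 67.5, 67.3, 57.9 and 54.1 CPM (1.89 ± 0.20, adjusted p = 9.58e-07), and ATP2B1, the calcium pump of the plasma membrane, from 102, 102, 105 and 108 to 361, 334, 319 and 287 CPM (1.64 ± 0.088, adjusted p = 5.56e-10). Of 8 osmolyte genes 5 were higher and 2 lower (median 0.552). The taurine transporter SLC6A6 (1.69 ± 0.18, adjusted p = 8.03e-07), the amino acid transporter SLC38A2 (1.26 ± 0.13, adjusted p = 5.09e-07) and the inositol transporter SLC5A3 (1.18 ± 0.28, adjusted p = 0.00197) rose. NFAT5, the regulator on this list, rose as well (0.65 ± 0.19, adjusted p = 0.0085), a call lost without S1D4 replicates 3 and 4 (0.45, adjusted p = 0.124). The sorbitol-forming AKR1B1 (-1.11 ± 0.18, adjusted p = 6.49e-05) and the betaine transporter SLC6A12 (-1.66 ± 0.41, adjusted p = 0.00276) fell.

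Immediate-early and AP-1 genes, which answer signals within minutes and encode short-lived transcription factors, were higher 4 days after the change of conditions. Of 26 tested genes 23 were higher, 22 of them at least 2-fold, and 2 were lower (median 1.65), against 28.3% and 8.89% higher among all genes. The S2D4 libraries lay above the S1D4 libraries for 23 members. FOSB, an AP-1 subunit, had 1.59, 1.32, 1.76 and 1.57 CPM in S1D4 and 35.8, 33.6, 36.1 and 58.8 CPM in S2D4 (4.71 ± 0.19, adjusted p = 3.92e-11). The zinc finger factor EGR1 had 84.8, 83.7, 196 and 191 CPM in S1D4 and 1641, 1630, 1567 and 869 CPM in S2D4 (3.36 ± 0.31, adjusted p = 1.91e-07). For EGR1 replicate 4 was the lowest S2D4 library, and S1D4 was split into pairs, with a log2 fold change of 4.09 without replicates 3 and 4. EGR2 (3.72 ± 0.19, adjusted p = 3.09e-10) and KLF4 (3.92 ± 0.30, adjusted p = 2.85e-08) also rose. FOS itself had 8.596, 6.67, 9.26 and 7.47 CPM in S1D4 and 22.6, 25.3, 21.03 and 49.3 CPM in S2D4 (1.89 ± 0.26, adjusted p = 1.5e-05). The AP-1 subunit JUND (-0.66 ± 0.17, adjusted p = 0.00415; -0.13 adjusted p = 0.263 with GC and length trends removed) and BTG2, an antiproliferative gene, were the members that fell, BTG2 from 17.1, 18.6, 21.5 and 22.7 to 9.84, 9.53, 9.86 and 15.1 CPM (-0.84 ± 0.18, adjusted p = 0.00106). With replicate 4 left out the list stood at 23 higher and 3 lower (median 1.51).

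MAPK feedback genes are transcribed in response to ERK signalling and restrain it. They were higher in 9 of 16 cases and lower in none (median 0.611), against 28.3% and 26.8% among all genes. DUSP6, the phosphatase of ERK, had 485, 464, 610.5 and 616 CPM in S1D4 and 897, 939.8, 904 and 809 CPM in S2D4 (0.71 ± 0.14, adjusted p = 0.000526), with 40.5% of its exon bases under opposite-strand exons. DUSP4 (0.98 ± 0.10, adjusted p = 4.15e-07), PHLDA1 (0.99 ± 0.11, adjusted p = 2.02e-06) and the receptor EPHA2 (1.53 ± 0.21, adjusted p = 1.31e-05) rose. Without replicate 4 the list had 2 lower members. MYC rose from 60.1, 54.4, 80.4 and 73.6 to 114, 114, 114 and 101 CPM (0.72 ± 0.12, adjusted p = 6.66e-05). FOXO targets and genes of feedback on PI3K were called in both directions. Of 20 genes 7 were higher and 7 lower, against the same 28.3% and 26.8%. The median of 0.036 changed sign under several settings (-0.0919 without replicate 4, -0.0637 with upper-quartile scaling). The thioredoxin inhibitor TXNIP rose from 59.6, 51.8, 112 and 122 to 826, 830.1, 768 and 366 CPM (3.01 ± 0.30, adjusted p = 3.84e-07; 3.66 without S1D4 replicates 3 and 4), the pseudokinase TRIB1 rose (2.48 ± 0.14, adjusted p = 1.19e-09), and the insulin receptor substrate IRS1 rose from 10.6, 9.75, 17.5 and 16.98 to 57.4, 57.2, 62.8 and 66.3 CPM (2.15 ± 0.19, adjusted p = 1.29e-07). FOXO6 (-1.96 ± 0.25, adjusted p = 6.81e-06) and FOXO4 (-1.09 ± 0.13, adjusted p = 4.11e-06) fell, as did the sestrin SESN3 (-1.04 ± 0.27, adjusted p = 0.00412), whose call was lost without S1D4 replicates 3 and 4 (adjusted p = 0.0847).

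**Figure D2:**
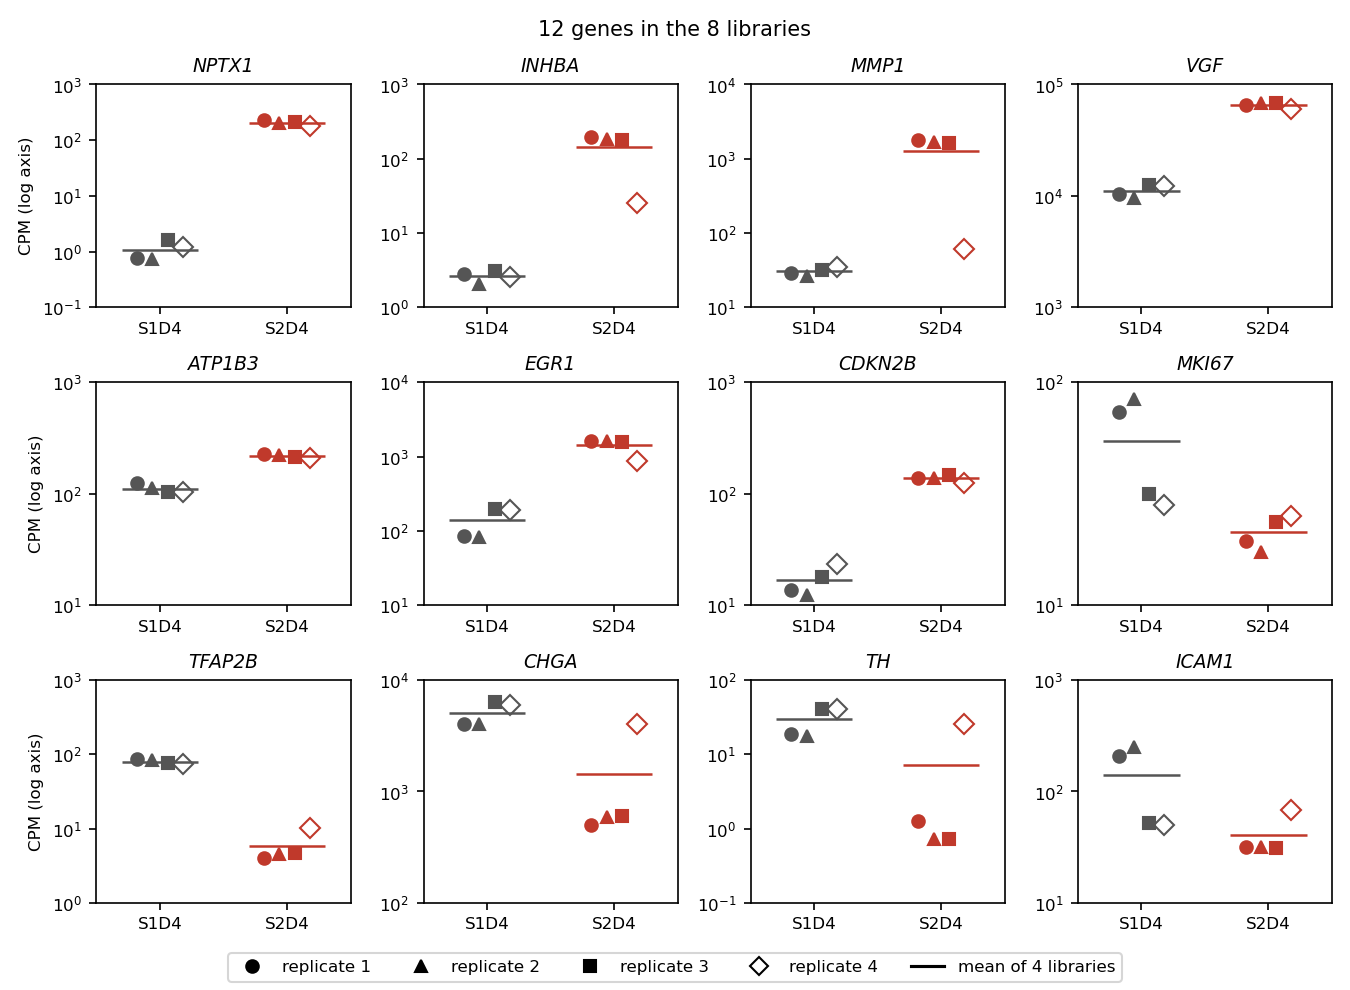
CPM (log axes) of 12 genes in the 4 S1D4 and 4 S2D4 libraries; each symbol is a replicate, open diamonds are replicate 4 and bars are means of 4 libraries. NPTX1, VGF, ATP1B3 and CDKN2B rose in all 4 S2D4 libraries, replicate 4 of S2D4 lay near S1D4 for MMP1, CHGA and TH, and MKI67 and ICAM1 differed between S1D4 replicates 1 and 2 and replicates 3 and 4.

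Genes of mitosis fell more uniformly at this step than genes of DNA replication. Both groups are switched on in dividing cells, replication genes at the entry into S phase and mitosis genes in G2. Of 37 mitosis and spindle genes 34 were lower and none was higher, 23 of them at least 2-fold (median -1.11), against 26.8% and 12.8% lower among all genes. Of 37 replication genes 3 were higher and 11 lower (median -0.147), against 28.3% higher and 26.8% lower among all genes. Without S2D4 replicate 4 these counts were 2 and 16 (median -0.273), and with upper-quartile scaling also 2 and 16 (median -0.25). In these bulk samples fewer dividing cells and less RNA per dividing cell cannot be told apart.

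Mitosis genes are known to be repressed through a CHR element in their promoters, and replication genes to be driven through E2F sites, and the promoters of both lists were searched for these letters. RefSeq promoter windows (build GRCh38.p14, 250 bases before to 50 after the start) were found for 33 genes of each list. The CHR letters TTTGAA, on either strand, occurred in 25 of 33 mitosis windows (75.8%) and 1 of 33 replication windows (3.03%), against 15.4% of all 27305 windows and 9.94% of the 11242 windows of tested genes. The E2F letters GCGGGAA, on either strand, occurred in 18 of 33 replication windows (54.5%) and 3 of 33 mitosis windows (9.09%), against 6.56% of all windows and 9.84% of those of tested genes. Neither pattern contains the other. Stretches of 60 or 61 bases around the motif, in capitals, are shown for 7 genes, all upstream of the start and on the strand of the gene, so that the letters that set the lists apart can be seen in their context. These genes were chosen after their values were seen. CHR stretches come from KIF4A (chrX:70290043-70290102, plus strand) and KIF23 (chr15:69414267-69414326, plus strand), kinesins of the central spindle, CCNF, which encodes cyclin F (chr16:2429335-2429394, plus strand), and MKI67, the proliferation antigen Ki-67 (chr10:128126438-128126497, minus strand).
KIF4A: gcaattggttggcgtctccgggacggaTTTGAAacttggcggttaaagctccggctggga
KIF23: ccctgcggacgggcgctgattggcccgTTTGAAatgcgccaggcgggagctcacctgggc
CCNF: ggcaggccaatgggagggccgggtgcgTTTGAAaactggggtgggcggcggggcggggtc
MKI67: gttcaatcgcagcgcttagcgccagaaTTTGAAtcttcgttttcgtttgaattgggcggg
E2F stretches come from the helicase subunit gene MCM3 (chr6:52284882-52284942, minus strand, motif on the opposite strand), the licensing factor gene CDT1 (chr16:88803727-88803787, plus strand) and PCNA, the sliding clamp of DNA polymerases (chr20:5126648-5126708, minus strand).
MCM3: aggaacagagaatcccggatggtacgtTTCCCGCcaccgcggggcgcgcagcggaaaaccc
CDT1: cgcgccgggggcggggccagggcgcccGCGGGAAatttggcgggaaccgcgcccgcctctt
PCNA: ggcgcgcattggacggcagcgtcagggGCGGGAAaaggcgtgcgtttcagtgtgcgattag
KIF4A (log2 fold change -1.55), KIF23 (-0.84), CCNF (-1.10) and MKI67 (-1.35) all fell with all libraries. Without S1D4 replicates 1 and 2 the KIF4A value was -0.86, and KIF23 was not called (-0.37, adjusted p = 0.146). MCM3 (-0.47) and CDT1 (-0.67) fell too. MCM7 (0.35) and UHRF1 (0.45), replication genes that also hold the E2F letters but are not shown, were called higher. MCM7 was not called without S2D4 replicate 4 (0.16, adjusted p = 0.149). Other replication genes with these letters were lower or not called. CDT1 was not called with GC and length trends removed (-0.20, adjusted p = 0.286) or without S1D4 replicates 1 and 2 (-0.54, adjusted p = 0.0858). PCNA was not called with all libraries (0.086) and was called higher without S1D4 replicates 1 and 2 (0.44, adjusted p = 0.0443). The MKI67 and CDT1 stretches hold their letters once more, in lower case.
The CHR letters alone did not sort the genes, and the E2F letters were not examined in this way. Of the mitosis genes with a window, 23 of 25 with the CHR letters and 8 of 8 without them fell, with medians of -1.1 and -1.11. Outside the mitosis list, 1093 tested genes had the CHR letters, and 279 of them (25.5%) were lower, against 27% of the 10124 tested genes without the letters.

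The size of the mitotic fall depended on which S1D4 libraries were used. MKI67 had 73.4, 84.1, 31.6 and 28.1 CPM in S1D4 and 19.4, 17.3, 23.5 and 24.98 CPM in S2D4, against 212 ± 56.6 CPM in untreated cells and 0.151 ± 0.206 CPM at 30 days (-1.35 ± 0.33, adjusted p = 0.00256). S1D4 replicates 3 and 4 were close to S2D4. Without S1D4 replicates 1 and 2 MKI67 was not called (-0.49, adjusted p = 0.184), and the mitosis list had 23 members lower and none higher (median -0.595). Without S1D4 replicates 3 and 4 all 37 were lower (median -1.48), and without S2D4 replicate 4, 35 were lower (median -1.3). Per library, the list's median log2 ratio to the S1D4 mean, computed on CPM + 0.5, was 0.467, 0.429, -0.407 and -0.48 in S1D4. It was -1.23, -1.22, -1.09 and -0.723 in S2D4, so that all S2D4 libraries lay below all S1D4 libraries. KIF20A, a kinesin of cytokinesis, fell from 24.2, 23.3, 13.1 and 12.3 to 4.19, 4.32, 4.05 and 4.503 CPM (-2.09 ± 0.22, adjusted p = 7.15e-07). The survivin gene BIRC5 (-1.60 ± 0.22, adjusted p = 1.46e-05; -1.01 without S1D4 replicates 1 and 2) and the centromeric histone CENPA (-1.72 ± 0.28, adjusted p = 7.48e-05; -1.04 without S1D4 replicates 1 and 2) also fell.

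Replication genes changed balance with the same choice, at 7 higher and 4 lower without S1D4 replicates 1 and 2 (median 0.0165) and 2 higher and 15 lower without replicates 3 and 4 (median -0.353). The helicase subunit MCM6 rose from 56.3, 51.3, 48.1 and 44.5 to 75.8, 80.5, 80.02 and 87.6 CPM (0.69 ± 0.10, adjusted p = 3.47e-05), and UHRF1, which maintains DNA methylation at replication, from 73.1, 73.4, 68.7 and 64.3 to 90.3, 95.9, 97.3 and 97.2 CPM (0.45 ± 0.079, adjusted p = 0.000156). CDC45, a helicase cofactor, had 31.1, 29.6, 14.9 and 15.1 CPM in S1D4 and 10.5, 9.195, 11.8 and 16.6 CPM in S2D4 (-0.91 ± 0.25, adjusted p = 0.00596). The groups overlapped, and without S1D4 replicates 1 and 2 CDC45 was not called (adjusted p = 0.289).

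**Figure D3:**
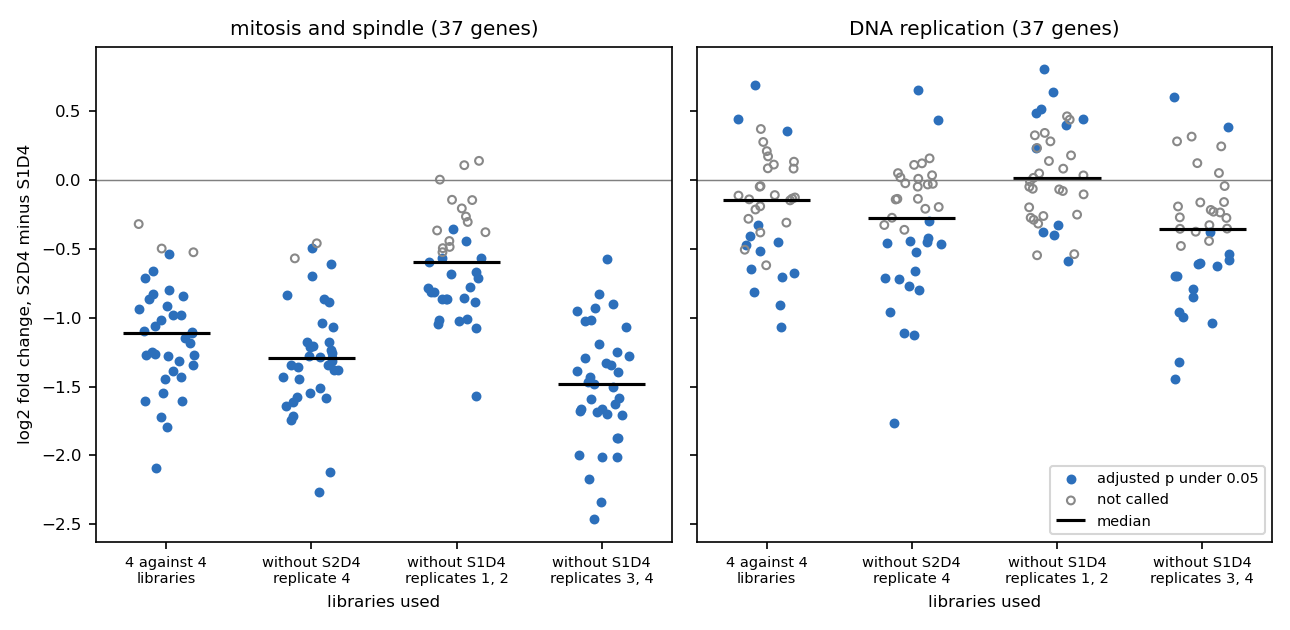
Log2 fold changes, S2D4 minus S1D4, of the 37 mitosis and 37 replication genes (points; blue, adjusted p under 0.05) with all libraries, without S2D4 replicate 4 and without either pair of S1D4 libraries; bars are medians. Mitosis genes called lower numbered 34, 35, 23 and 37 in that order, while the replication median moved between -0.353 and 0.0165.

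Cyclins, E2F factors and inhibitors of cyclin-dependent kinases (CDKs) changed one by one. CCND1, the D-type cyclin that carries growth signals to CDK4 and CDK6, rose from 134, 132, 152 and 149.8 to 635, 599, 609 and 694 CPM (2.16 ± 0.088, adjusted p = 3.92e-11). In the G1 and E2F list of 17 genes 4 were higher and 4 lower (median 0.146). The lower members numbered 2 without S1D4 replicates 1 and 2. E2F1 fell from 97.7, 105, 70.1 and 64.4 to 27.7, 30.6, 25.6 and 63.04 CPM (-1.19 ± 0.23, adjusted p = 0.000373), E2F2 fell (-1.17 ± 0.18, adjusted p = 5.29e-05) and CDK2 rose (0.87 ± 0.15, adjusted p = 0.000137). The repressor E2F7 had 10.9, 11.3, 14 and 14.4 CPM in S1D4 and 49.4, 45.9, 41.7 and 11.01 CPM in S2D4 (1.54 ± 0.32, adjusted p = 0.000605), with replicate 4 inside the S1D4 range. Of 7 CDK inhibitors 4 rose. CDKN2B, the p15 inhibitor of CDK4 and CDK6, had 13.7, 12.4, 17.7 and 23.2 CPM and then 138, 138, 148 and 126 CPM (3.04 ± 0.23, adjusted p = 1.98e-08), against 3.47 ± 1.53 CPM in untreated cells. CDKN1A, the p21 inhibitor, rose from 146, 153, 123 and 122 to 522, 558, 557 and 652 CPM (2.07 ± 0.12, adjusted p = 1.28e-09), above the 12.9 ± 2.102 CPM of untreated cells. CDKN1C (1.38 ± 0.14, adjusted p = 4.63e-07) and CDKN2A (1.06 ± 0.11, adjusted p = 7.72e-07) rose, while CDKN2C, the p18 inhibitor, fell from 102, 99.6, 93.7 and 88.7 to 10.3, 11.7, 11.6 and 9.87 CPM (-3.14 ± 0.17, adjusted p = 5.63e-10) and CDKN1B, the p27 inhibitor, fell (-0.74 ± 0.079, adjusted p = 8.75e-07). CDKN2D was called only without replicate 4 or with upper-quartile scaling, among the settings tried (-0.35 ± 0.20, adjusted p = 0.153; -0.64 and adjusted p = 0.00198 without replicate 4).

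Of 18 other p53 targets 7 were higher and 5 lower (median 0.213). With S2D4 replicate 1, 2 or 3 or S1D4 replicates 1 and 2 left out, 3 were lower. The stress cytokine GDF15, also a target of the integrated stress response, had 37.5, 33.3, 61.5 and 60.8 CPM in S1D4 and 212, 212, 228 and 2114 CPM in S2D4. Replicate 4 was by far the highest, and the log2 fold change of 3.84 ± 0.66 (SE, adjusted p = 0.000122) became 2.17 (adjusted p = 5.01e-07) without it. AEN (1.44 ± 0.11, adjusted p = 3.06e-08) and PLK3 (1.17 ± 0.11, adjusted p = 1.59e-07) rose, and TP53I3 (-1.28 ± 0.24, adjusted p = 0.000242) and FDXR (-0.95 ± 0.15, adjusted p = 5.68e-05) fell.

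Chaperone genes of the secretory pathway and genes of the integrated stress response mostly rose. Endoplasmic reticulum chaperones, which fold secreted proteins, were higher for 18 of 19 genes and lower for none (median 0.671, 0.883 without replicate 4). The chaperone HSP90B1 had 599, 564, 632 and 617 CPM in S1D4 and 1419, 1452, 1374 and 930.1 CPM in S2D4 (1.10 ± 0.12, adjusted p = 1.1e-06). SDF2L1 rose from 36.1, 32.5, 34.2 and 34.1 to 112, 129, 126 and 58.6 CPM (1.63 ± 0.18, adjusted p = 1.54e-06), and DNAJC3 rose (1.19 ± 0.09, adjusted p = 1.76e-08). In the integrated stress response, the programme downstream of eIF2 alpha phosphorylation, 14 of 24 genes were higher and 1 was lower (median 0.533). Without S1D4 replicates 3 and 4, 3 were lower. PPP1R15A, the phosphatase subunit that reverses this phosphorylation, rose from 78.99, 76.7, 85.9 and 84.1 to 419.6, 428, 461 and 572 CPM (2.53 ± 0.14, adjusted p = 9.09e-10). The hormone STC2 rose from 5.51, 5.93, 5.27 and 4.199 to 31.3, 30.6, 32.6 and 47.7 CPM (2.77 ± 0.16, adjusted p = 1.26e-09). DDIT4 (2.14 ± 0.17, adjusted p = 3.54e-08) and DDIT3, which encodes CHOP (1.64 ± 0.15, adjusted p = 1.48e-07), rose, with 41.2% and 31.6% of their exon bases under opposite-strand exons. The lower gene was CHAC1, a glutathione-degrading enzyme, at 10.8, 12.6, 5.4 and 4.61 CPM in S1D4 and 3.23, 2.63, 4.05 and 5.403 CPM in S2D4 (-1.11 ± 0.29, adjusted p = 0.00429). Its call was lost without S1D4 replicates 1 and 2 (adjusted p = 0.257). The CCAAT-ATF element, searched as TGATGNAA on either strand, was present in 4 of 21 promoter windows of this list (19%), against 3.67% of all windows and 1.81% of those of tested genes. CHAC1, the lower gene, was among these 4. In 20 windows of immediate-early genes the AP-1 letters TGANTCA occurred in 1 (5%), against 4.87% of windows of tested genes and 7.76% of all windows. The CRE letters TGACGTCA occurred in 2 of these 20 (10%, against 3.12% and 1.98%) and the CArG box in 1 (5%, against 0.961% and 1.29%). JUND, which fell, was 1 of the 2 genes with the CRE letters. Whether any of these letters go with the direction of change was not tested. The AP-1 letters occurred in 4 of 17 cytokine windows (23.5%) and 3 of 9 matrix protease and inhibitor windows (33.3%).

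Other stress lists behaved differently. Of 16 cytosolic heat shock genes 2 were higher and 2 lower (median 0.117). Those counts were 4 and 3 without S2D4 replicate 4, 6 and 2 with GC and length trends removed, 1 and 4 with upper-quartile scaling and 2 and 0 without S1D4 replicates 3 and 4. HSPA4 (0.47 ± 0.072, adjusted p = 3.53e-05) and the mitochondrial chaperonin gene HSPD1 (0.31 ± 0.09, adjusted p = 0.00866; 0.28 adjusted p = 0.0755 without S1D4 replicates 3 and 4; adjusted p = 0.0774 with upper-quartile scaling) rose, and the inducible HSPA1A (-0.55 ± 0.19, adjusted p = 0.0223) and HSPA1B (-0.71 ± 0.20, adjusted p = 0.00621), near-identical copies whose reads may be split between them, fell. With GC and length trends removed neither was called (adjusted p = 0.334 and 0.0772), nor without S1D4 replicates 3 and 4 (adjusted p = 0.162 and 0.0829). HSPA1A also lost its call when S1D4 replicate 3 or S2D4 replicate 1, 2 or 3 was left out (adjusted p = 0.0572 to 0.0636). Of 19 NRF2 targets and ferritin genes 3 were higher and 6 lower (median -0.172). Without S1D4 replicates 3 and 4, 0 were higher. PIR (-2.18 ± 0.22, adjusted p = 4.14e-07) and the malic enzyme ME1 (-1.41 ± 0.19, adjusted p = 1.04e-05) fell. The ferritin chains FTH1 (0.68 ± 0.17, adjusted p = 0.00339) and FTL (0.60 ± 0.17, adjusted p = 0.00582) rose, but neither was called without S1D4 replicates 3 and 4 (adjusted p = 0.0667 and 0.0548), and 62.4% of FTH1 exon bases lie under opposite-strand exons. Heme oxygenase HMOX1 had 3.17, 2.45, 4.302 and 3.51 CPM in S1D4 and 3.28, 2.41, 3.17 and 9.01 CPM in S2D4 and was not called (0.43 ± 0.34, adjusted p = 0.298). Without replicate 4 its difference had the opposite sign (-0.18, adjusted p = 0.54). Metallothioneins bind zinc and copper. Of the 9 genes on their list 4 were tested and 3 were higher, 1 of which is not itself a metallothionein. MT2A had 46.6, 40.9, 31.3 and 32.4 CPM and then 668, 623, 524 and 388 CPM (3.86 ± 0.26, adjusted p = 5.03e-09), MT1X rose (2.92 ± 0.25, adjusted p = 7.27e-08), and SLC30A1, the zinc exporter on that list, rose (1.56 ± 0.23, adjusted p = 3.07e-05). Other genes hold 14.3% of the 75-base words of MT1X.

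Most genes of glycolysis and the hypoxia response rose, 15 of 21 tested, and 2 fell (median 0.719). NDRG1 rose from 27.9, 23.7, 44.6 and 43.2 to 245, 249, 248 and 226 CPM (2.79 ± 0.16, adjusted p = 8.4e-10), VEGFA, the vascular growth factor, from 106, 131, 129 and 136 to 426, 429, 453 and 563 CPM (1.90 ± 0.12, adjusted p = 2.86e-09), and the glucose transporter SLC2A3 from 27.4, 23.1, 30.6 and 34.01 to 96.5, 85.8, 90.4 and 97.9 CPM (1.69 ± 0.11, adjusted p = 4.5e-09). The oxygen sensor EGLN3 (-2.39 ± 0.20, adjusted p = 7.81e-08) and the glycolytic regulator PFKFB4 (-1.86 ± 0.17, adjusted p = 2.13e-07), usually raised by hypoxia, fell. Among 23 sterol genes 4 were higher and 6 lower (median -0.186). Without S1D4 replicates 1 and 2, 2 were lower, and without replicates 3 and 4, 2 were higher. INSIG1, a sensor protein that restrains sterol synthesis, rose (0.77 ± 0.18, adjusted p = 0.00221). HMGCS1, an early enzyme of cholesterol synthesis, was higher by 0.40 ± 0.12 (SE, adjusted p = 0.0089), a call lost with upper-quartile scaling (adjusted p = 0.0502) and without S1D4 replicates 3 and 4 (adjusted p = 0.173). The mevalonate kinase MVK fell (-0.86 ± 0.24, adjusted p = 0.00618), a call lost without S1D4 replicates 1 and 2 (-0.73, adjusted p = 0.0581). Of 10 fatty acid synthesis genes 2 were higher and 4 lower. FASN had 906, 1038, 921 and 913 CPM in S1D4 and 565, 546, 652 and 695 CPM in S2D4 (-0.62 ± 0.10, adjusted p = 0.000106), and ACLY (-0.62 ± 0.12, adjusted p = 0.000259) and FADS2 (-0.84 ± 0.10, adjusted p = 4.12e-06) fell with it. Lysosome and autophagy genes were higher for 14 of 24 and lower for 4 (median 0.602). The lower members numbered 2 without either S1D4 pair and 1 with GC and length trends removed. The lysosomal enzyme TPP1 (98.8, 93.01, 106 and 99.6 CPM in S1D4 and 347, 338, 353 and 299 CPM in S2D4; 1.75 ± 0.077, adjusted p = 7.53e-11) and the autophagosome protein GABARAPL1 (1.59 ± 0.14, adjusted p = 1.58e-07) rose.

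Of genes that answer components of B27, a glucocorticoid and a retinoid list were counted, and no thyroid hormone list. Both lists held called members in both directions, and a part of B27 in this was not tested. Of 13 glucocorticoid-response genes 6 were higher and 2 lower (median 0.419, 0.237 without replicate 4), against 28.3% and 26.8% among all genes. The kinase SGK1 rose from 18.9, 19.3, 12.7 and 12.7 to 147, 135, 137 and 178 CPM (3.23 ± 0.20, adjusted p = 2.92e-09) and the phosphatase DUSP1 from 44.7, 38.2, 47.1 and 45.96 to 418, 450.3, 435 and 254 CPM (3.15 ± 0.17, adjusted p = 7.19e-10), genes that other signals also raise. ERRFI1 (2.04 ± 0.15, adjusted p = 1.27e-08), the clock gene PER1 (1.60 ± 0.18, adjusted p = 1.51e-06), the receptor itself, NR3C1 (1.44 ± 0.15, adjusted p = 7.08e-07), and the co-chaperone FKBP5 (20.6, 18.7, 18.7 and 16.2 CPM in S1D4 and 29.6, 29.6, 27.9 and 41.8 CPM in S2D4; 0.80 ± 0.13, adjusted p = 9.93e-05) rose. TSC22D3, which encodes the glucocorticoid-induced leucine zipper protein, fell from 5.3, 4.901, 5.53 and 5.67 to 3.13, 2.86, 3.02 and 4.54 CPM (-0.65 ± 0.16, adjusted p = 0.00264), and CRISPLD2 fell (-2.41 ± 0.39, adjusted p = 7.44e-05; -1.31 without S1D4 replicates 1 and 2 and -3.02 without replicates 3 and 4). Of 14 retinoid genes 3 were higher and 8 lower (median -0.773, -1.25 without replicate 4), and 5 were lower without S1D4 replicates 1 and 2. CRABP2, which carries retinoic acid to the nucleus, had 162, 161, 129 and 125 CPM in S1D4 and 15.4, 13.9, 17.7 and 120.1 CPM in S2D4. Replicate 4 was close to S1D4, and the log2 fold change of -1.77 (adjusted p = 0.0081) became -3.20 without it and lost its call without S1D4 replicates 1 and 2 (adjusted p = 0.0543). ALDH1A3, which makes retinoic acid, had 132, 123, 178 and 166 CPM in S1D4 and 20.6, 21.8, 20.6 and 72.5 CPM in S2D4 (-2.14 ± 0.34, adjusted p = 5.01e-05; -2.84 without replicate 4). Retinol dehydrogenase RDH10 (2.48 ± 0.20, adjusted p = 3.69e-08), transglutaminase TGM2 (1.55 ± 0.22, adjusted p = 1.55e-05) and the receptor RARA (1.0 ± 0.19, adjusted p = 0.000354) rose.

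The adrenergic programme fell and the mesenchymal one rose. Of 16 adrenergic transcription factors 11 were lower and none was higher (median -0.98, -1.17 without replicate 4), with S2D4 below S1D4 in all libraries for 10 of them. TFAP2B, a factor of sympathetic progenitors, fell from 87.7, 82.7, 76.6 and 72.99 to 4.001, 4.598, 4.68 and 10.2 CPM (-3.74 ± 0.23, adjusted p = 2.36e-09). MYCN, which is not amplified in this line, had 1.38 ± 0.483 CPM in untreated cells, 7.05, 8.97, 8.16 and 6.69 CPM in S1D4 and 0.579, 1.29, 0.683 and 1.53 CPM in S2D4 (-2.89 ± 0.32, adjusted p = 1.2e-06). GATA3 had 85.3, 88.5, 105 and 109 CPM and then 38.9, 38.6, 36.6 and 103 CPM (-0.83 ± 0.25, adjusted p = 0.00995), with replicate 4 at the S1D4 level. The call of GATA3 was lost in the fit of the 8 libraries alone (adjusted p = 0.0523) and without S1D4 replicates 3 and 4 (adjusted p = 0.0935), and its log2 fold change was -1.35 without S2D4 replicate 4.

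Of 16 mesenchymal transcription factors 11 were higher and none was lower (median 1.16, 1.32 without replicate 4). RUNX1 rose from 6.802, 6.47, 8.604 and 9.41 to 85.9, 79.1, 76.7 and 42.2 CPM (3.18 ± 0.20, adjusted p = 3.36e-09), and TWIST2 from 17.1, 14.9, 24.4 and 25.1 to 153, 153, 158 and 105 CPM (2.80 ± 0.20, adjusted p = 9.31e-09). SNAI2, a repressor of epithelial genes, had 1.29, 1.72, 1.23 and 1.48 CPM in S1D4 and 20.1, 19.4, 17.2 and 3.37 CPM in S2D4 (3.39 ± 0.43, adjusted p = 6.68e-06). PRRX1 had 139.5, 131, 142 and 143 CPM in S1D4 and 235, 245, 236 and 117 CPM in S2D4 (0.58 ± 0.17, adjusted p = 0.00682). Replicate 4 lay below all S1D4 libraries, the other 3 above them, and the call was lost without S1D4 replicates 1 and 2 (adjusted p = 0.0573). The matrix protein FN1, another mesenchymal marker, was not called, with 15.9, 15.04, 9.702 and 7.61 CPM in S1D4 and 14.5, 13.2, 15.7 and 2.44 CPM in S2D4 (-0.087 ± 0.39, adjusted p = 0.867; 0.26 without S2D4 replicate 4 and 0.39 without S1D4 replicates 1 and 2).

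Catecholamine synthesis and transport, the transmitter pathway of sympathetic cells, fell in 10 of 13 members and rose in 2 (median -1.62, -2.85 without replicate 4). With DESeq2 8 of 13 were lower, and in the fit of the 8 libraries alone 7 of 12 tested. TH, the rate-limiting enzyme, had 18.9, 17.9, 41.1 and 41.2 CPM in S1D4 and 1.25, 0.729, 0.732 and 25.8 CPM in S2D4, against 0.285 ± 0.217 CPM in untreated cells. Replicate 4 lay inside the S1D4 range and the other 3 were far below it. The log2 fold change was -2.02 ± 0.81, adjusted p = 0.0433, and -5.02 (adjusted p = 2.95e-08) without replicate 4. A replicate block, with replicate 4 kept, gave -3.05 (adjusted p = 0.0045). With replicate 4 kept, the call was lost in the fit of 8 libraries (adjusted p = 0.125), with DESeq2 (0.0647) and when S1D4 replicate 3 (0.0941), S1D4 replicate 4 (0.0944), both of these (0.285) or S2D4 replicate 1, 2 or 3 (0.101, 0.0923 and 0.0919) was left out. DBH, which makes noradrenaline, had 15.02, 13.9, 16.6 and 15.7 CPM in S1D4 and 2.46, 3.53, 3.56 and 30.9 CPM in S2D4. It was not called with all libraries (-0.56 ± 0.56, adjusted p = 0.417) and was lower without replicate 4 (-2.27, adjusted p = 3.97e-07). The noradrenaline transporter SLC6A2 had 29.3, 28.03, 31.04 and 29.99 CPM in S1D4 and 0.289, 0.617, 0.244 and 11.1 CPM in S2D4 (-3.17 ± 0.72, adjusted p = 0.00135; -6.29 without replicate 4), with the same library apart.

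DDC, the decarboxylase between TH and DBH in the pathway, behaved alike in all 4 S2D4 libraries. It had 10.9, 10.8, 5.49 and 6.55 CPM in S1D4 and 0.0482, 0.112, 0.0976 and 0.0333 CPM in S2D4, where no library had more than 2 counts, and was thus at least 60.4-fold lower, computed against 3 counts per library (adjusted p = 1.02e-08). The vesicular transporter SLC18A1 (-4.01 ± 0.49, adjusted p = 4.29e-06; -4.89 without replicate 4), the monoamine oxidase MAOA (-1.42 ± 0.13, adjusted p = 2.35e-07) and the cofactor enzyme QDPR (-1.29 ± 0.21, adjusted p = 6.12e-05) fell. GCH1 and PTS, which make the cofactor tetrahydrobiopterin, were the members that rose (0.51 ± 0.15, adjusted p = 0.00945 and 0.76 ± 0.16, adjusted p = 0.000838). GCH1 was not called without S1D4 replicates 1 and 2 (adjusted p = 0.111).

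Granins and the enzymes that cut prohormones in dense-core vesicles were all called, 6 of 9 higher and 3 lower (median 0.769, 0.998 without replicate 4). VGF, a granin-like neuropeptide precursor, had 10330, 9493, 12470 and 12150 CPM in S1D4 and 64820, 68430, 67610 and 60560 CPM in S2D4 (2.56 ± 0.20, adjusted p = 2.87e-08). It was the most abundant gene of each S2D4 library, with 5.3% to 6.49% of all counts, against 1.02% to 1.35% in S1D4 and 227 ± 73.2 CPM in untreated cells. With trends of GC content and length removed the log2 fold change was 3.29. Chromogranin A, CHGA, had 4061, 4076, 6359 and 5953 CPM in S1D4 and 500, 593, 605 and 4048 CPM in S2D4 (-1.83 ± 0.57, adjusted p = 0.0127). Replicate 4 nearly reached the S1D4 range, and CHGA was at -3.18 without it, while the call was lost without S1D4 replicates 3 and 4 (adjusted p = 0.0886). Secretogranin SCG2 rose from 636, 563, 775 and 768 to 1959, 1990, 1939 and 2220 CPM (1.56 ± 0.12, adjusted p = 1.65e-08). The convertase PCSK1 rose from 1.59, 1.23, 0.922 and 1.06 to 51.97, 48.7, 52.2 and 9.54 CPM (5.07 ± 0.46, adjusted p = 1.65e-07), and SCG5, a chaperone of the convertase PCSK2, from 0.918, 0.686, 0.746 and 1.06 to 14.99, 15.4, 12.7 and 1.33 CPM (3.67 ± 0.55, adjusted p = 3.24e-05), with replicate 4 far lower in both. The carboxypeptidase CPE (-1.0 ± 0.16, adjusted p = 7.44e-05) and the amidating enzyme PAM (-0.83 ± 0.10, adjusted p = 4.6e-06) fell.

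Neuronal structure genes fell more often than they rose, while synaptic genes were divided. Of 18 neuronal cytoskeleton and growth cone genes 2 were higher and 11 lower (median -0.601). The higher members numbered 4 without S1D4 replicates 1 and 2. DCX, the doublecortin of migrating neurons, went from 13.7, 14.8, 6.01 and 5.58 to 0.289, 0.449, 0.146 and 0.2001 CPM (-5.23 ± 0.49, adjusted p = 2.01e-07; -4.44 without S1D4 replicates 1 and 2). The alpha tubulin TUBA1A fell from 1421, 1288, 1132 and 1147 to 380.4, 384, 374 and 429 CPM (-1.67 ± 0.13, adjusted p = 2.82e-08), and STMN4 fell (-2.01 ± 0.39, adjusted p = 0.000345; -1.31 without S1D4 replicates 1 and 2). TUBB3, a neuronal beta tubulin, fell from 234, 219, 233 and 238 to 160.3, 160, 156 and 184 CPM (-0.49 ± 0.13, adjusted p = 0.00574), but shares 31.3% of its 75-base words with other genes and was not called once GC and length trends were removed (adjusted p = 0.329). GAP43, a protein of growing axons, had 19.9, 19.7, 9.75 and 8.305 CPM in S1D4 and 83.5, 90.4, 80.7 and 11.6 CPM in S2D4 (2.20 ± 0.45, adjusted p = 0.000609). Its replicate 4 lay within the S1D4 range, and its log2 fold change was 2.87 without S1D4 replicates 1 and 2. STMN2 was not called with all libraries, at 62.3, 54.4, 30.2 and 29.9 CPM in S1D4 and 56.5, 53.6, 50.7 and 35.1 CPM in S2D4 (0.15 ± 0.23, adjusted p = 0.61; -0.24 without S1D4 replicates 3 and 4), and was higher without S1D4 replicates 1 and 2 (0.70, adjusted p = 0.0149). Of 18 synaptic vesicle and exocytosis genes 5 were higher and 8 lower (median -0.246). The vesicle protein SYP rose from 76.7, 77.1, 69.3 and 64.4 to 197, 216, 225 and 291 CPM (1.69 ± 0.14, adjusted p = 6.52e-08), and the fusion proteins STX1A (1.54 ± 0.12, adjusted p = 3.62e-08) and UNC13A (1.49 ± 0.23, adjusted p = 3.86e-05) rose. RAB3A (-2.18 ± 0.19, adjusted p = 1.26e-07) and the synapsin SYN2 (-1.43 ± 0.13, adjusted p = 1.12e-07) fell.

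Matrix genes changed without one direction. Of 23 collagens and matrix glycoproteins 7 were higher and 5 lower (median 0.205), near the background. Tenascin C, TNC, had 76.1, 79.1, 42.4 and 37.6 CPM in S1D4 and 1114, 1059, 1261 and 59.7 CPM in S2D4 (3.89 ± 0.60, adjusted p = 4.03e-05), so that 3 S2D4 libraries were far above S1D4 and replicate 4 lay within its range. Thrombospondin THBS2 rose (4.06 ± 0.59, adjusted p = 2.32e-05; 4.96 without S1D4 replicates 3 and 4). The small proteoglycans DCN (14.1, 11.3, 9.22 and 11.1 CPM in S1D4 and 1.54, 1.29, 1.37 and 4.34 CPM in S2D4; -2.36 ± 0.35, adjusted p = 2.73e-05; -3.02 without replicate 4) and LUM (-1.82 ± 0.27, adjusted p = 2.46e-05) and the collagen COL3A1 (-0.76 ± 0.12, adjusted p = 4.06e-05) fell. Of 18 matrix proteases and inhibitors 10 were higher and 6 lower, 8 and 6 of them at least 2-fold. The stromelysin MMP10 had 1.13, 0.931, 0.527 and 0.877 CPM in S1D4 and 32.9, 30.7, 31.3 and 1.23 CPM in S2D4 (4.77 ± 0.68, adjusted p = 2.04e-05). The membrane protease MMP15 fell from 53.1, 48.6, 35.5 and 32.99 to 4.001, 5.21, 4.59 and 4.87 CPM (-3.19 ± 0.18, adjusted p = 7.97e-10), and the plasminogen activator PLAT fell (-1.90 ± 0.26, adjusted p = 1.21e-05). The gelatinase MMP9 had 22.8, 30.9, 6.37 and 6.83 CPM and then 3.52, 4.93, 4.098 and 6.14 CPM (-1.83 ± 0.43, adjusted p = 0.00174). Its log2 fold change was -2.50 without S1D4 replicates 3 and 4, and it was not called without replicates 1 and 2 (adjusted p = 0.194). Targets of SRF and YAP, which respond to actin tension, were higher for 8 of 18 and lower for 4 (median 0.19, 0.467 without replicate 4). CTGF rose from 0.334, 0.04901, 0.0878 and 0.415 to 17.4, 14.02, 16 and 4.102 CPM (5.81 ± 0.64, adjusted p = 1.32e-06), CYR61 (1.41 ± 0.33, adjusted p = 0.00178) and the actin crosslinker FLNA (1.36 ± 0.11, adjusted p = 3.31e-08) rose, and smooth muscle actin ACTA2 fell from 24.2, 28.1, 5.05 and 6.598 to 1.54, 1.06, 0.976 and 0.667 CPM (-3.92 ± 0.56, adjusted p = 2.12e-05). The fall of ACTA2 was -2.47 without S1D4 replicates 1 and 2 and -4.62 without replicates 3 and 4, and opposite-strand exons cover 30.1% of its exon bases.

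Cytokines and chemokines changed by large factors, in both directions. Of 19 tested genes 12 were higher and 4 lower, each at least 2-fold (median 3.46, 2.32 without S1D4 replicates 3 and 4). In the fit of the 8 libraries alone 15 were tested, with 9 higher and 4 lower (median 2.71). With all 19, the S2D4 libraries lay above all S1D4 libraries for 9 members and below them for 4. Per library, the median log2 ratio to the S1D4 mean was 1.75, 1.83, 1.77 and 0.38 in S2D4. These ratios were computed on CPM + 0.5, which shrinks differences of genes with few counts. IL1B, an inflammatory interleukin, had 16.8, 17.8, 12.3 and 14.3 CPM in S1D4 and 288, 259.9, 265 and 26.02 CPM in S2D4 (3.78 ± 0.51, adjusted p = 1.07e-05). IL24 rose from 1.42, 0.735, 2.06 and 1.66 to 67.6, 61.6, 61.9 and 8.805 CPM (5.07 ± 0.51, adjusted p = 4.61e-07). The neutrophil chemokine CXCL8 rose from 41.2, 40.7, 11.7 and 12.1 to 212, 201, 186 and 89.5 CPM (2.70 ± 0.38, adjusted p = 1.65e-05), with log2 fold changes of 3.85 and 2.08 without S1D4 replicates 1 and 2 or 3 and 4. CXCL5 had 0.459, 0.833, 0.351 and 0.231 CPM in S1D4 and 23.5, 26.5, 24.3 and 0.3002 CPM in S2D4 (5.30 ± 0.84, adjusted p = 5.69e-05; 5.95 without S1D4 replicates 1 and 2), and its replicate 4 stayed at the S1D4 level. TNF, by contrast, had 11.7, 14.2, 2.37 and 1.34 CPM and then 0, 0.224, 0.195 and 0.634 CPM (-4.67 ± 0.79, adjusted p = 0.0001). IL32 fell from 92.3, 111, 21.1 and 22.1 to 2.17, 2.803, 1.805 and 8.34 CPM (-3.98 ± 0.66, adjusted p = 8.16e-05). TNF and IL32 were -5.71 and -4.77 without S2D4 replicate 4, -2.70 and -2.48 without S1D4 replicates 1 and 2, and -5.47 and -4.69 without replicates 3 and 4. Untreated cells had 0.0365 ± 0.0453 CPM of TNF and 3.57 ± 2.52 CPM of IL32.

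NF-kB subunits and feedback genes leaned downward, but the lean rested on the S1D4 pair with high levels. Of 14 genes 4 were higher and 7 lower (median -0.465). Without S1D4 replicates 1 and 2, 5 were higher and 2 lower, and the median turned to 0.0794. The per-library medians were 0.313, 0.487, -0.412 and -0.335 in S1D4 and -0.526, -0.626, -0.51 and 0.292 in S2D4. ICAM1, an adhesion molecule for leukocytes, had 208, 250, 52.1 and 49.9 CPM in S1D4 and 31.96, 31.4, 31.3 and 67.5 CPM in S2D4 (-1.78 ± 0.49, adjusted p = 0.0057). It was -0.33 and not called without S1D4 replicates 1 and 2 (adjusted p = 0.539), and -2.48 without replicates 3 and 4. TNFAIP3, which ends NF-kB signalling, rose from 7.55, 7.69, 3.07 and 3.46 to 24.1, 21.5, 24.5 and 11.2 CPM (1.90 ± 0.30, adjusted p = 5.56e-05; 2.63 without S1D4 replicates 1 and 2). NFKBIZ rose (1.51 ± 0.27, adjusted p = 0.000163) and the adaptor TRAF1 fell (-1.38 ± 0.21, adjusted p = 3.49e-05). Of 20 interferon-stimulated genes 3 were higher and 4 lower (median -0.199). Without S2D4 replicate 4, 5 were higher and 6 lower, and without S1D4 replicates 1 and 2, 2 were lower. IRF7 had 14.1, 14.8, 13.8 and 12.8 CPM in S1D4 and 25.98, 27.4, 26.1 and 75.4 CPM in S2D4 (1.49 ± 0.27, adjusted p = 0.00023). IRF1 (-0.96 ± 0.28, adjusted p = 0.00764) and OAS3 (-0.52 ± 0.15, adjusted p = 0.00788) fell, and neither was called without S1D4 replicates 1 and 2 (adjusted p = 0.266 and 0.0783).

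Ribosomal protein genes were called less often than genes in general. Of 45 cytosolic ribosomal protein genes 2 were higher and 6 lower (median -0.0501), all under 2-fold. With GC and length trends removed 8 were higher and 12 lower, and the median was positive (0.00433). With upper-quartile scaling the counts were 0 and 10. The number lower was 2 without S1D4 replicate 1, and 3 without S2D4 replicate 1 or S2D4 replicate 3. None was higher without S1D4 replicate 2, S1D4 replicate 3 or S2D4 replicate 4. RPL15 had the largest difference (-0.57 ± 0.10, adjusted p = 0.000142). Of 13 mitochondrially encoded genes 2 were higher and 6 lower (median -0.584). The number lower was 2 without S1D4 replicate 2, without S1D4 replicates 1 and 2 it was 1, and in the fit of the 8 libraries alone it was 10. MT-ND1, a subunit of complex I, rose from 2284, 2698, 1610 and 1632 to 5559, 4861, 4572 and 5578 CPM (1.32 ± 0.29, adjusted p = 0.00102). MT-ND3, another subunit of complex I, fell from 2388, 2297, 1674 and 1951 to 512, 534, 420.2 and 763 CPM (-1.90 ± 0.24, adjusted p = 4.6e-06), and MT-ATP6, a subunit of ATP synthase, fell (-1.02 ± 0.27, adjusted p = 0.0046), a call lost without S1D4 replicates 1 and 2 (-0.73, adjusted p = 0.0789). Other genes hold 28% of the 75-base words of MT-ATP6 and 16.3% of those of MT-ND1. Mitochondrial genes took 5.9% to 8.38% of counts in S1D4 and 4.29% to 4.96% in S2D4.

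**Figure D4:**
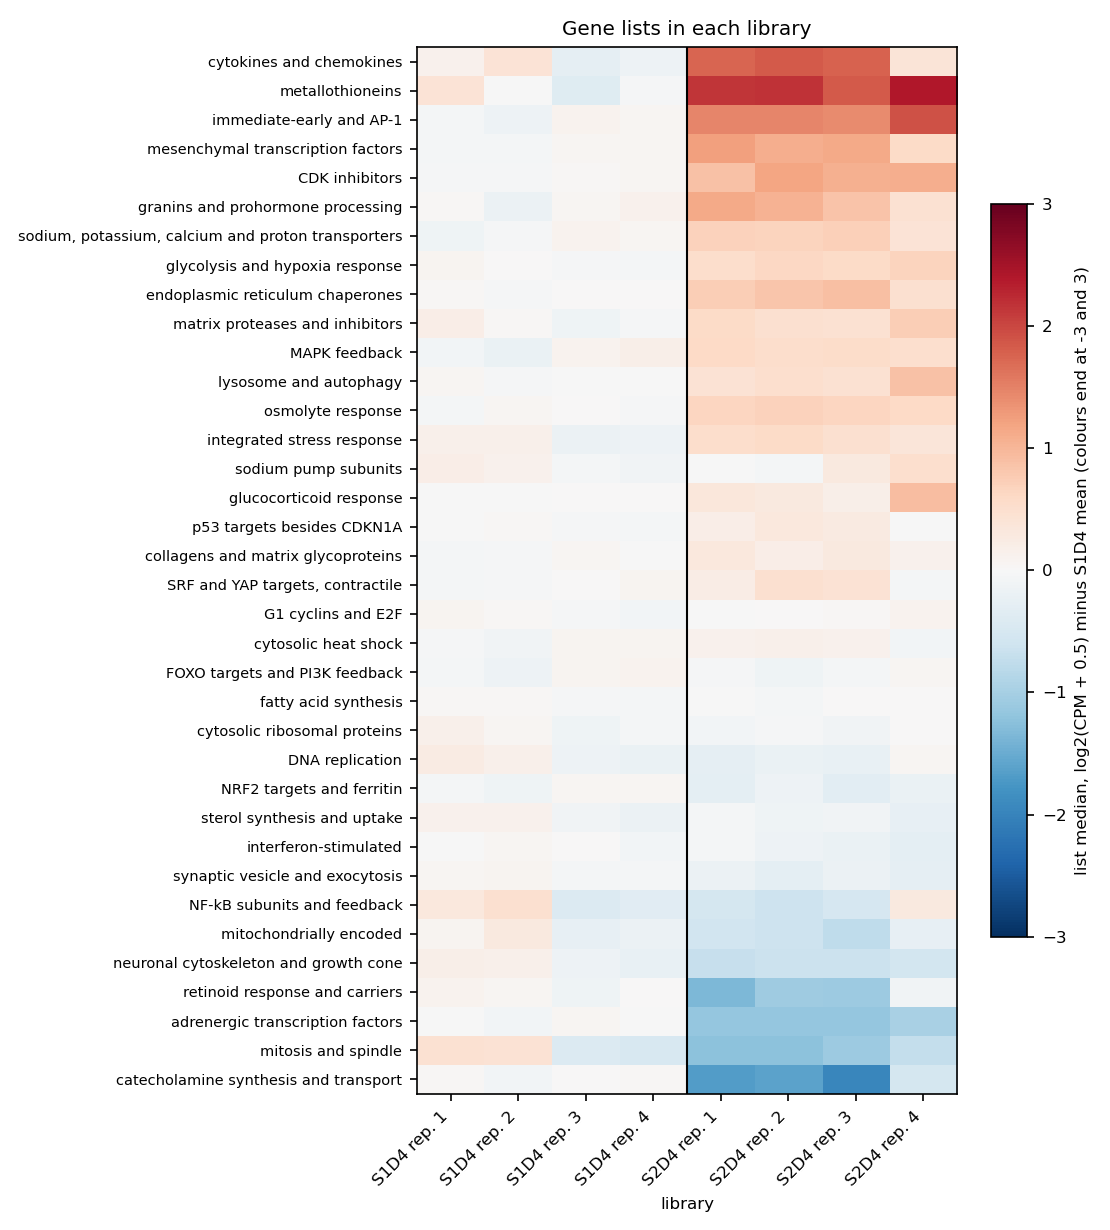
Median of each gene list in each of the 8 libraries, as log2(CPM + 0.5) minus the mean of the S1D4 libraries (red higher, blue lower; colours end at -3 and 3). S2D4 replicate 4 is paler than the other S2D4 libraries for cytokines, retinoid and catecholamine genes and darker for metallothioneins and immediate-early genes, and the S1D4 pairs differ for mitosis and NF-kB genes.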

How the data were processed

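Total RNA treated with DNase was sequenced as paired reads, per the labels. The authors deposited raw read counts per gene symbol for 22 libraries, and the aligner, counting program, strand setting, genome build and annotation are not given in the sources used here. The counts of the 16 SK-N-AS libraries were fitted together, so that all groups share 1 estimate of the spread (edgeR 4.0.16 in R 4.3.3, filterByExpr with a minimum count of 10, trimmed mean of M-values scaling, quasi-likelihood test), and S2D4 was contrasted with S1D4. The SE was derived from the fold change and the F statistic. CPM are scaled over the same 16 libraries. The common biological coefficient of variation was 0.183. In simulated counts for 15484 genes of this comparison, 90% of genes changed by 1 on the log2 scale and 100% of those changed by 2 were recovered, and 11 of 15284 unchanged genes were called. The changed genes were drawn only from genes with ample counts. The simulation held no library standing apart and no division of S1D4, so its rates do not cover low counts or those divisions. Members of the comparison and gene lists were chosen with earlier results of these data known. Genes are named as the 10 largest called changes in each direction with at least 10 CPM and separate groups, up to 3 called list members per direction with at least 5 CPM in the higher group, members of lists of 13 genes or fewer, and a fixed set; the promoter examples and PTPRC were added after their values were seen. Some genes that this rule names are not reported here. Promoter windows were matched by symbol to RefSeq sequence (GRCh38.p14). Opposite-strand overlap and 75-base words shared with other genes were read from GENCODE 29, for 194 of the 195 named genes. Alternatives were DESeq2 1.42.0, other scalings and filters, the 8 libraries alone, a replicate block and each replicate left out. Removing trends of GC content and length (known for 94.3% of tested genes), leaving out either S1D4 pair, and the 8 libraries without S2D4 replicate 4 were chosen after seeing the data.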

Additional observations from a re-analysis of the deposited data

Results flagged for a closer look

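A library was singled out where its gap to the nearest of the other 3 libraries of its group was a larger share of the group's whole range than Dixon's critical value allows. Chance alone singles out about 1 group in 20. S2D4 replicate 4 met this for 2645 of 15810 genes (16.7%), and the other 7 libraries for 81 to 233 genes each (0.512% to 1.47%). It also met it for the median position between S1D4 and the other S2D4 libraries, 0.758, where the other 3 lay at 0.99 to 1.01. That scale was set from the other 3 libraries, which lie near 1 by construction, so this gap is no separate evidence. Of the 195 genes named here, 77 had replicate 4 apart, 49 with more and 28 with less RNA than the other 3 libraries. The values that follow are CPM of replicate 4. Among neural, secretory and adrenergic genes it was above the other S2D4 libraries for CHGA (4048), CPE (75.9), DBH (30.9), GATA3 (103), GCH1 (89.2), QDPR (111), SLC6A2 (11.1), SYN2 (5.74), TFAP2B (10.2), TH (25.8) and TUBB3 (184), and below them for GAP43 (11.6), PAM (212), PCSK1 (9.54) and STX1A (83.7). Among matrix, protease, contractile and mesenchymal genes it was above the other S2D4 libraries for DCN (4.34) and LUM (56.5), and below them for MMP1 (60.7), MMP10 (1.23), PRRX1 (117), THBS2 (2.54), TNC (59.7) and TWIST2 (105). Among cytokine, NF-kB and interferon genes it was above the other S2D4 libraries for CCL2 (17.3), ICAM1 (67.5), IL32 (8.34), IRF1 (18.9) and IRF7 (75.4), and below them for CXCL5 (0.3002), IL1B (26.02) and IL24 (8.805). Among ion transport and osmolyte genes it was above the other S2D4 libraries for ATP1B2 (5.17) and SLC12A7 (106), and below them for AKR1B1 (24.8) and FXYD5 (47.9). Among signalling and immediate-early genes it was above the other S2D4 libraries for BTG2 (15.1), EPHA2 (411), FOS (49.3), FOSB (58.8), FOXO6 (7.004), JUND (445) and KLF4 (73.5), and below them for EGR1 (869) and TXNIP (366). Among cell cycle and p53 genes it was above the other S2D4 libraries for CDK2 (74.9), CDKN1B (49.5), E2F1 (63.04), E2F2 (13.5) and GDF15 (2114). Among stress and metabolic genes it was above the other S2D4 libraries for DDIT4 (119), HMOX1 (9.01), HSPA1A (132), MVK (27.1), SLC30A1 (203) and STC2 (47.7), and below them for DNAJC3 (50.5) and HSP90B1 (930.1). Among hormone-response, retinoid, ribosomal and mitochondrial genes it was above the other S2D4 libraries for ALDH1A3 (72.5), CRABP2 (120.1), FKBP5 (41.8), PER1 (161), RARA (246) and TSC22D3 (4.54), and below them for DUSP1 (254) and RDH10 (81.5). Among genes outside the lists it was above the other S2D4 libraries for FAIM2 (3.57), IGLON5 (2.702), NEUROG2 (19.8), SHD (6.104) and TMOD1 (12.8), and below them for DIO2 (3.54), FZD8 (3.63), GALNT9 (10.01), INHBA (25.4), MYC (101), STC1 (1395) and THBD (2.94). In S1D4 the same gap singled out FASN in S1D4 replicate 2 (1038 CPM, the others 906 to 921), FTL in S1D4 replicate 1 (487 CPM, the others 427 to 435), GABARAPL1 in S1D4 replicate 2 (2.89 CPM, the others 4.75 to 4.83), PAM in S1D4 replicate 2 (419 CPM, the others 477 to 487) and SLC6A6 in S1D4 replicate 3 (20.1 CPM, the others 14.6 to 15.5). A cause was not tested for any of these.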

How the results depend on the processing

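Over 19 alternative settings, the number of genes higher in S2D4 lay between 3674 and 4921 and the number lower between 3460 and 4970, against 4470 and 4242, all within 1.5 times. For at least 2-fold differences the counts lay between 1187 and 1565 higher and 1768 and 2273 lower genes. Leaving out 1 replicate at a time gave 4148 to 4656 higher and 3902 to 4713 lower genes, and both highest counts came without S2D4 replicate 4. With upper-quartile scaling 42.8% of calls were higher, against 50.2% with DESeq2 size factors. With trends of GC content and length removed, 10 genes were called in the opposite direction, and under every other setting none was. The labels do not say whether replicate numbers pair the samples. Deviations of same-numbered libraries from their group means correlated at 0.00370 to 0.0791, and those of differently numbered libraries at -0.0804 to 0.0685. The S1D4 pairs and S2D4 replicate 4 also enter these deviations, so they cannot decide whether samples were paired. With a replicate block 4484 genes were higher and 4320 lower, and 8485 of the 8712 calls were kept. The block moved TH from -2.02 to -3.05 (adjusted p = 0.0045) and SLC6A2 from -3.17 to -3.92 (adjusted p = 0.000462), the named genes whose fold it moved by over 1.5 times. Without S1D4 replicates 1 and 2, 6755 of the 8712 calls were kept, and without replicates 3 and 4, 6991.

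Of 3700 values for the 195 named genes, 3632 kept direction and call, 44 lost their call, 8 gained one and 16 changed sign. Sign changes were found for 4 genes that were not called with all libraries. FN1 was -0.2839 to 0.2624 with 1 replicate left out, 0.2548 in the 8 libraries without S2D4 replicate 4 and 0.3888 without S1D4 replicates 1 and 2. HMOX1 was -0.1836 to 0.6352 with 1 replicate left out and -0.1908 in the 8 libraries without S2D4 replicate 4. PCNA was -0.0228 to 0.2307 with 1 replicate left out, -0.0178 with upper-quartile scaling, -0.0284 with GC and length trends removed, -0.0303 in the 8 libraries without S2D4 replicate 4 and -0.1912 without S1D4 replicates 3 and 4, and it was called higher without S1D4 replicates 1 and 2 (0.4446, adjusted p = 0.0443). STMN2 was -0.000524 to 0.3587 with 1 replicate left out and -0.2411 without S1D4 replicates 3 and 4. The medians of 8 lists changed sign under at least 1 setting: sodium pump (-0.0137 with DESeq2), FOXO and PI3K, replication, G1 and E2F, heat shock, fatty acid synthesis, NF-kB and ribosomal proteins. The cause was not tested.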
